A study of Mus musculus with 21 samples.

Results

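The genes described here code for the proteins of the cytosolic ribosome. They were taken by name (Rps or Rpl with a number, Rpsa, Rplp0, Rplp1 and Rplp2, protein-coding, with a mean of at least 1 TPM), which gave 82 genes of the 23570 with a value, 32 of the small and 50 of the large subunit. Rpl39l was the lowest gene inside that limit, with a mean of 3.28 TPM, and Rpl3l fell just outside it, with 0.09 TPM. TPM gives a transcript's share of a library after division by its length, so levels of different genes can be compared.

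A ribosome joins a small subunit, which reads the mRNA, to a large subunit, which forms peptide bonds, and each core protein is present in about equal numbers. The mRNAs of these proteins are among the most abundant of most cells. Many begin with a C followed by a run of pyrimidines, the terminal oligopyrimidine (TOP) motif, through which mTOR and LARP1 control their translation, a step that RNA levels do not show. Macrophages that meet bacterial products shift much of their mRNA to inflammatory genes.

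CD11b+ cells from unelicited peritoneal lavage of C57BL/6 mice were cultured overnight, and total RNA of 21 wells was sequenced, 1 library for each combination. The genotypes were Lum-/- (6 libraries) and Bgn-/- (6 libraries, from Bgn-/0 or Bgn-/- mice), which are labelled as lacking the matrix proteoglycans lumican and biglycan, and wild type (WT, 9 libraries). Cells received 100 ng/mL LPS, a TLR4 ligand, for 6 h, 1 uM CpG, a TLR9 ligand, for 6 h, or no stimulus, 7 libraries each. Lum-/- cells also had recombinant lumican, Bgn-/- cells biglycan and WT cells either, at 10 ug/mL for 1 h before LPS or CpG, or alone at a dose and time that the labels do not state. How mice were divided among wells is not given, so p-values cannot be said to measure the spread between mice. With 1 library per combination, the tests used the fit across all genes, which in the main tests adds genotype and treatment effects. The spread is the departure from that fit. Differences between wells and treatment effects that differ by genotype cannot be told apart in it. In bulk RNA, fewer cells of a type and less RNA per cell cannot be told apart.

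Libraries differed before any comparison. Lum-/- untreated and Bgn-/- with biglycan alone, which differ in both labels, were closer to each other than counting error allows for, by approximate read numbers. Over genes with 1 transcript, their squared differences were 0.515 times what counting gives, against 5.55 times for the next closest of 210 pairs. This ratio grows with depth, which was low in both. Paired with any other library, either of them gave at least 15.5 times. The SD of log2 differences over genes above 10 TPM does not single the pair out, at 0.271 against 0.216 for the closest pair. The 2 libraries may not be separate samples, so counts and named differences against no stimulus are also given without them. Fits with all libraries count them as 2. These 2 libraries were also shallow, with about 183238 and 185441 reads in those genes, against 969835 to 1652928 in the other 19. Arg1, an arginase that some activated macrophages make, was at 688 and 601 TPM in them, against 1.17 to 67.2 TPM in the others. The untreated WT library stood apart less clearly, by its marker sums. It had 771 TPM over 10 B cell markers, against 900 to 1640 in the other unstimulated libraries, and 44100 TPM over 10 macrophage markers, against 29800 to 41200. Its depth (1448331 reads in the genes with 1 transcript) and Arg1 (4.52 TPM) were not unusual. It is grouped with the 2 below as the 3 libraries that stand apart. All 10 macrophage markers had means above 1 TPM. Lum, the gene named as deleted, had 0.823 to 14.1 TPM in the libraries labelled Lum-/- and 0 to 1.40 TPM in WT, which goes against the label. Bgn had 0 to 3.49 TPM in those labelled Bgn-/- and 0.327 to 1.52 TPM in WT. Genotypes below are therefore those of the labels.

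Most members were high, with means from 3.28 to 1838 TPM. Of the 82, 12 had means above 1000 TPM, 44 between 500 and 1000 TPM, 21 between 100 and 500 TPM and 5 under 100 TPM. Those 5 include Rps12, Rpl5 and Rpl12, whose copies are described below. Rplp1, an acidic protein of the large subunit's stalk that recruits elongation factors, was highest, with a mean of 1838 TPM. Rps24 (1323 TPM) and Rps29 (1240 TPM) of the small subunit, Rpl13a (1196 TPM), which is also known from translational silencing of inflammatory mRNAs in human monocytic cells, and Rps9 (1131 TPM) followed. The median member varied 2.06-fold between its lowest and highest library, against 3.55-fold for the median gene above 0 in every library. The order of the members was alike in any 2 libraries, with Spearman's rho across genes of 0.827 to 0.994.

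The sequence at the start of transcription shows, in part of the members, the feature the family is known for. RefSeq promoter windows (GRCm38.p6) were matched to 62 of the 82 members, in 73 windows of 32851. A C at the annotated start followed by 4 pyrimidines stood in 13 of the 73 windows (17.8%), against 2.51% of all windows. A start placed a few bases off would hide the motif, and whether that accounts for the other windows was not tested. Some of the 13 are shown here. In each window the first 30 bases lie before the start, and the capitals mark the pyrimidine run that begins at the start:
Rpl15 (chr14:18270967-18271016, minus strand): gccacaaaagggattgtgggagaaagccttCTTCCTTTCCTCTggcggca
Rpl35 (chr2:39005112-39005161, minus strand): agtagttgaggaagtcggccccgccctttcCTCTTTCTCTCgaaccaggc
Rps10 (chr17:27635225-27635274, minus strand): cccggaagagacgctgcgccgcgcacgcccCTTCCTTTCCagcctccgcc
Rps18 (chr17:33955646-33955695, minus strand): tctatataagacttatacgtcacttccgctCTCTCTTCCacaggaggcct
Rps6 (chr4:86857348-86857397, minus strand): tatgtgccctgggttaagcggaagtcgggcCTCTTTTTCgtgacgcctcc
Rpl28 (chr7:4792935-4792984, plus strand): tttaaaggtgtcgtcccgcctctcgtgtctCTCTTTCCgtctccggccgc
Rpl14 (chr9:120571487-120571536, plus strand): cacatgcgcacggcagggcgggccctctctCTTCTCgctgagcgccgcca
Rps27 (chr3:90213629-90213678, minus strand): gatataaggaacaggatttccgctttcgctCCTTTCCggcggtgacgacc

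Other letters searched in these windows of 250 bases before to 50 after the start differed in the same description. CCGGAAG, the core of an ETS-type site, stood on either strand of 37% of the members' windows, against 8.86% of all. CTTTCC on the gene strand within 50 bases of the start stood in 31.5%, against 4.69%, and it overlaps the pyrimidine runs above. GGGCGG, the core of a GC box, stood on either strand of 61.6%, against 35.7%, and TATAAA of 9.59%, against 13.6%. Rps10 above holds CCGGAAG upstream of its start. Such matches describe letters and are not sites shown to be bound.

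The share of RNA that codes for ribosomal proteins was lowest with LPS. The 82 members summed to 3.62% of TPM in Lum-/- cells with LPS, 3.93% in Lum-/- with lumican and LPS, 4.39% in Bgn-/- with LPS and 4.46% in Bgn-/- with biglycan and LPS. In WT the sums were 4.06% with LPS, 4.31% with lumican and LPS and 4.35% with biglycan and LPS. All 7 lay below every other library. With CpG the sums were 5.77% in Lum-/-, 6.27% in Lum-/- with lumican, 6.97% in Bgn-/-, 6.92% in Bgn-/- with biglycan, 6.80% in WT, 6.24% in WT with lumican and 6.11% in WT with biglycan. Without a stimulus, the 3 libraries that stand apart had the lowest sums, 5.25% in Lum-/- untreated, 5.40% in Bgn-/- with biglycan alone and 5.33% in WT untreated. The other 4 unstimulated sums were 6.49% in Lum-/- with lumican, 6.50% in Bgn-/- untreated, 6.31% in WT with lumican and 6.17% in WT with biglycan. CpG and unstimulated libraries overlapped. The 3 libraries had RNA absorbance ratios (260/230) of 1.21 to 2.36, against 2.78 to 4.17 in the other 4 unstimulated ones. The lowest ratios of the series were in stimulated cells, 0.13 in Lum-/- with CpG and 0.2 in Lum-/- with lumican and LPS. The part of RNA quality was not tested. Within a genotype and protein, the LPS sum was 0.605 to 0.826 times the unstimulated sum and 0.598 to 0.711 times the CpG sum, and the CpG sum was 0.965 to 1.28 times the unstimulated one. In the 4 combinations without the 3 libraries, those against no stimulus were 0.605 to 0.704 with LPS and 0.965 to 1.07 with CpG. These sums are descriptions and were not tested.

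**Figure D1:**
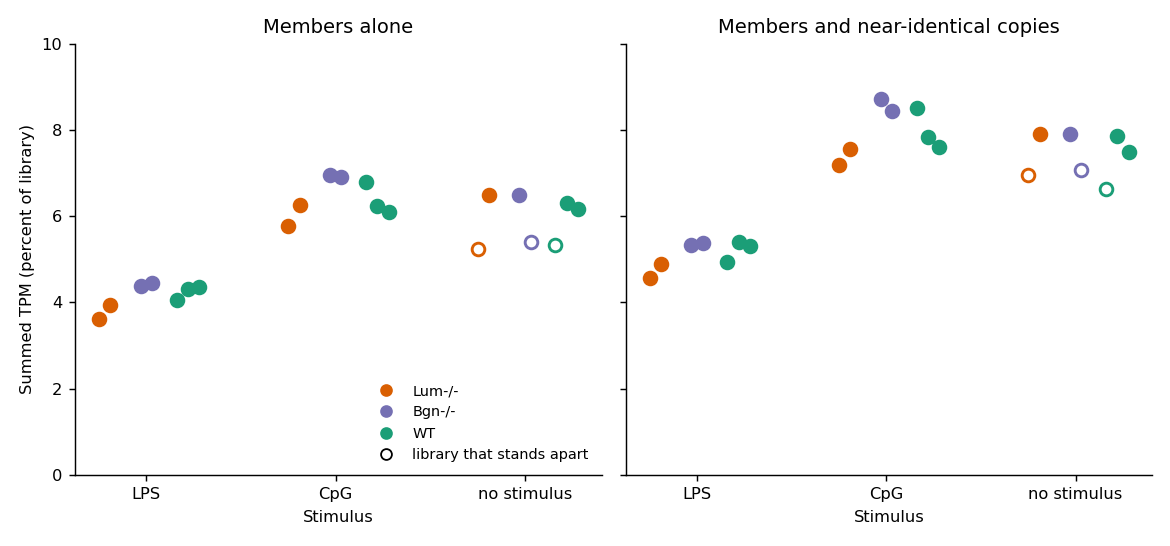
Summed TPM as a percent of each library (vertical axis) by stimulus, for the members alone (left) and with near-identical copies added (right). Each point is 1 library, coloured by genotype, and open points are the 3 libraries that stand apart. The 7 LPS libraries lie between 3.62% and 4.46% on the left, below all others, and the open points are the lowest without a stimulus.

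In the fit across all genes (limma, Benjamini-Hochberg adjusted p under 0.05 over 11774 genes), 70 members (85.4%) were lower and 2 (2.44%) higher in TPM with LPS than without a stimulus. Of all genes tested, 71.6% were called lower and 14% higher. The members' median difference in log2(TPM + 1) was -0.52, less negative than the -0.71 of all genes, and after median-of-ratios scaling, which sets the median gene level between libraries, it was 0.30, with 66 members called higher and 0 lower, against 38.9% of all genes called higher. A fall in TPM and a rise against the median gene are thus both in these values. Both subunits moved alike: 28 of 32 small-subunit members (median -0.50) and 42 of 50 large-subunit members (median -0.53) were called lower in TPM. All 7 LPS values lay below all 7 unstimulated ones for 50 members, against 58.1% of all genes. Without the 3 libraries that stand apart, 75 were called lower, against 72% of all genes, and 3 higher, against 14.7%. The summed macrophage markers moved with LPS too, at 11600 to 15400 TPM against 29800 to 44100 TPM without a stimulus, and summed mast cell markers were at 140 to 203 TPM against 4.83 to 90.7 TPM. Their part in the result was not tested.

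**Figure D2:**
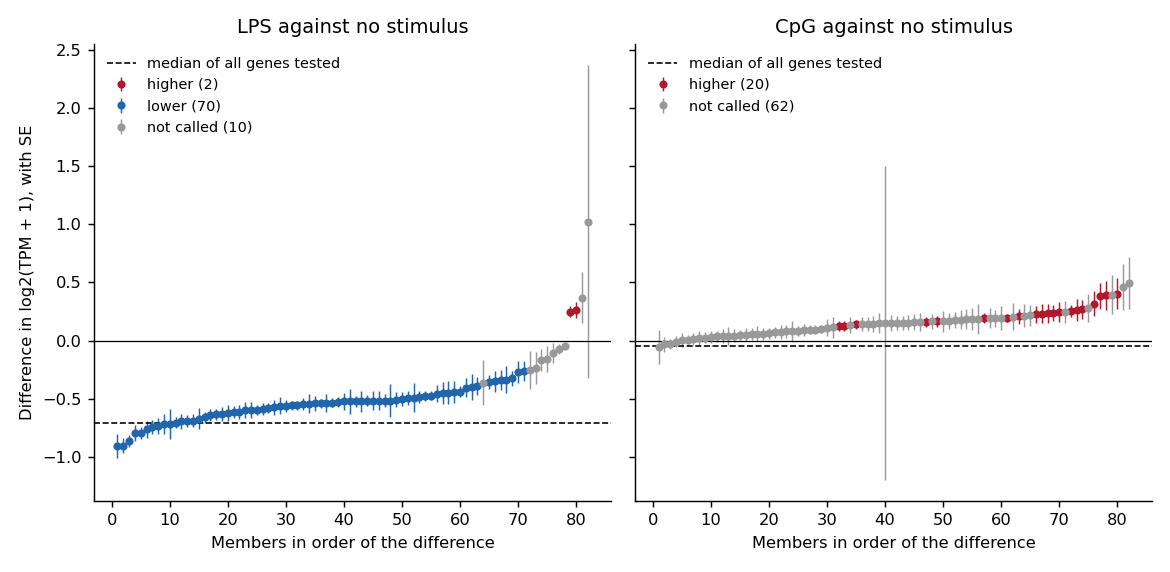
Difference in log2(TPM + 1) with its standard error (vertical axis) for each of the 82 members, in order of size, with LPS (left) and CpG (right) against no stimulus. Colours give the call at an adjusted p under 0.05, the dashed line is the median of all genes tested, and the solid line is 0. With LPS 70 members were lower in TPM, yet most lie above the dashed line, and median-of-ratios scaling turned the members' median to 0.30. The member with the long error bars is Rps27.

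Among the small-subunit members, Rpsa was lower in TPM with LPS. Rpsa, which sits near the mRNA exit and is also known as the laminin receptor, had 437 to 543 TPM with LPS (median 518), against 851 to 963 TPM (median 928) without a stimulus. The groups did not overlap, and the difference was -0.87 ± 0.05 (SE, limma adjusted p = 1.05e-09, lower in 7 of 7 matched pairs). After median-of-ratios scaling it was -0.04 (adjusted p = 0.517), and Rpsa was not called. Only 20.5% of Rpsa's TPM lay on transcripts that GENCODE types as coding, and on those alone the difference was 0.30 (adjusted p = 0.674).

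Of the large-subunit members, Rpl12, Rpl14, Rpl22 and Rpl13a were lowest relative to no stimulus. Rpl12, part of the base of the stalk, had 10.8 to 20.3 TPM (median 14.8) with LPS, against 22.2 to 34.6 TPM (median 28.4) without a stimulus, with no overlap. Its difference was -0.91 (adjusted p = 1.21e-06), and it was -0.47 with its copies added. Only 12.1% of Rpl12's TPM lay on transcripts that GENCODE types as coding. Rpl14 had 202 to 265 TPM (median 248) with LPS, against 376 to 488 TPM (median 469), a difference of -0.90 ± 0.07 (SE, adjusted p = 1.61e-08). The ranges of Rpl14 did not overlap either. After median-of-ratios scaling Rpl12 was at -0.12 (adjusted p = 0.297) and Rpl14 at -0.08 (adjusted p = 0.265), and neither was called. Rpl13a had 692 to 873 TPM (median 753) with LPS, against 1030 to 1679 TPM (median 1339) without a stimulus. It fell by 0.76 in TPM (adjusted p = 2.01e-07), with a value of 0.07 after median-of-ratios scaling. Without the 3 libraries that stand apart, Rpl12 was at -1.01, Rpl14 at -0.93, Rpl13a at -0.84, and Rpsa at -0.85, and all were called.

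Rpl24 and Rpl22l1 went the other way. Rpl24, which forms a bridge between the subunits, had 846 to 1034 TPM (median 975) with LPS, against 731 to 898 TPM (median 777) without a stimulus. It was higher in 7 of 7 matched pairs although the ranges overlapped, by 0.25 ± 0.05 (SE, adjusted p = 0.000268), and by 1.08 after median-of-ratios scaling. Rpl22l1, a paralog of Rpl22 that can take its place in the ribosome, had 180 to 250 TPM (median 194) with LPS, against 138 to 189 TPM (median 173). It was higher in 6 of 7 pairs, by 0.26 ± 0.07 (SE, adjusted p = 0.00246), and by 1.09 after median-of-ratios scaling. The rise was 0.21 for Rpl24 and 0.23 for Rpl22l1 without the 3 libraries, both called. Across the 21 libraries these 2 genes followed the members' mean least, with Pearson correlations of log2 values of 0.03 for Rpl24 and 0.02 for Rpl22l1, a description over libraries that share stimuli.

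Paralogs shifted against each other with LPS. Rpl22, an RNA-binding protein of the large subunit, had 252 to 310 TPM (median 294) with LPS, against 440 to 572 TPM (median 518) without a stimulus, and fell by 0.80 (adjusted p = 7.99e-08), at 0.03 after median-of-ratios scaling and -0.90 without the 3 libraries. Rpl22l1 therefore made up 37% to 45.9% of the pair's TPM with LPS, 25.8% to 28.5% with CpG and 23.5% to 27.8% without a stimulus. The LPS shares stood clear of both other groups, and a share within a pair does not depend on the scaling. Rpl36al, a paralog of Rpl36a, made up 61.5% to 67.9% of its pair with LPS, 50.3% to 54.1% with CpG and 48.2% to 60.6% without a stimulus. In that pair the 3 unstimulated libraries that stand apart had the highest unstimulated shares. These shares leave out copies of Rpl36a. Copies held 48.1% of Rpl36a and its copies in Lum-/- untreated, 35.2% in Bgn-/- with biglycan alone and 33.4% in WT untreated. In the other unstimulated libraries they held 22% to 34.1%, and their part was not tested. Rpl7l1, a paralog of Rpl7, was at 6.91% to 8.74% with LPS, 6.79% to 7.57% with CpG and 5.89% to 7.62% without a stimulus, so all 3 groups overlapped. Rpl39l, the paralog of Rpl39 known from male germ cells in mice, was at most 1.17% of its pair in any LPS library. Rps27l, the paralog of Rps27, had 128 to 162 TPM with LPS, 181 to 270 TPM with CpG and 166 to 239 TPM without a stimulus, and its share of the pair followed the division of Rps27 described below. These shares were not tested.

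**Figure D3:**
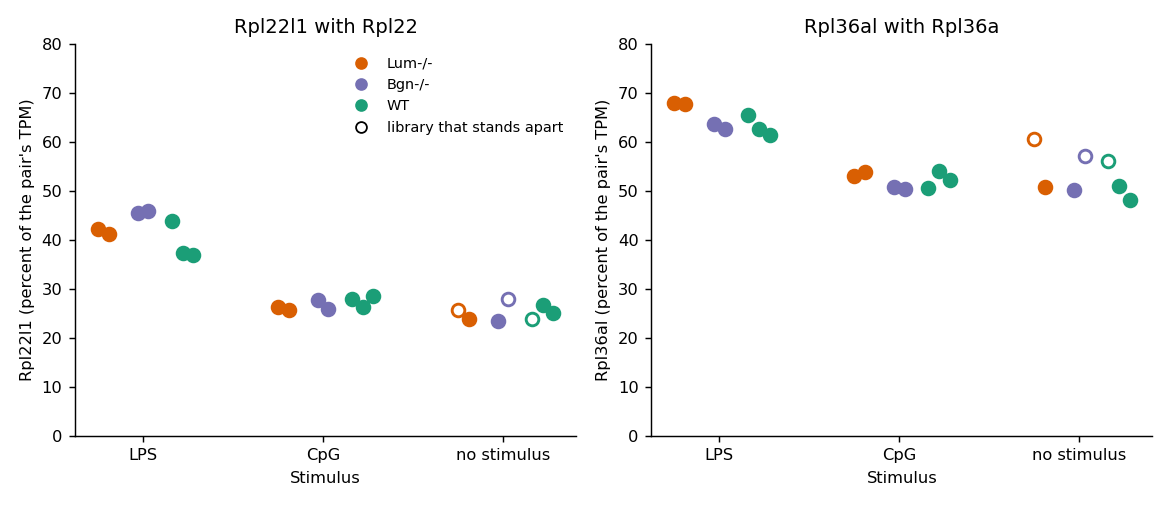
Share of a pair's TPM that belongs to the paralog (vertical axis, percent) by stimulus, for Rpl22l1 with Rpl22 (left) and Rpl36al with Rpl36a (right). Each point is 1 library, coloured by genotype, and open points are the 3 libraries that stand apart. Rpl22l1 lies at 37% to 45.9% with LPS and at most at 28.5% in the other libraries. TPM on copies is left out.

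Against CpG, LPS lowered nearly the whole group in TPM. In that comparison, which uses none of the libraries that stand apart in its difference, 78 members were lower and 0 higher, against 73.5% of all genes called lower. The members' median was -0.66, close to the -0.69 of all genes. All LPS values lay below all CpG values for 74 members, against 62.1% of all genes. Under median-of-ratios scaling the direction turned for most, with 29 members higher, 3 lower and a median of 0.12, against 36% of all genes called higher and 37.2% lower. Rpl36a, a protein at the large subunit's E site, had 194 to 311 TPM (median 273) with LPS, against 443 to 577 TPM (median 501) with CpG. The groups did not overlap and the difference was -0.96 (adjusted p = 1.59e-07). The other named falls were Rpl12 at -1.10, Rpl14 at -1.06, Rpl22 and Rpsa at -0.93 each and Rpl13a at -0.91. Of the TPM of Rpl12 and its copies, 96.4% lay on copies. With them added, Rpl12 had 441.1 to 605.1 TPM with LPS, against 738.4 to 1018 TPM with CpG. The 4 members not called were Rpl39l, Rpl24, Rpl22l1 and Rps27, named after their values were seen, and the difference of Rpl24 was -0.003.

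CpG gave small rises in some members. Against no stimulus, 20 (24.4%) were called higher and 0 lower, against 14.6% of all genes called higher, 5 of the small and 15 of the large subunit. The members' median was 0.15, against -0.05 over all genes. Without the 3 libraries that stand apart, 15 were higher, against 16.8% of all genes, and the members' median was 0.06. Under median-of-ratios scaling 38 were higher, against 18.1% of all genes. Markers of other cells moved with CpG: the sum over 6 dendritic cell markers, 3 of them with means above 1 TPM, was 47.4 to 63.6 TPM with CpG, against 16.6 to 30.4 TPM without a stimulus. The sum over 7 neutrophil markers, 4 of them with means above 1 TPM, was 428 to 480 TPM, against 485 to 786 TPM. Neither sum overlapped between the groups, the macrophage sums did (32700 to 37700 TPM, against 29800 to 44100 TPM), and the part of these cells in the result was not tested. Leaving out 1 library at a time gave 6 to 46 calls among the members, and the shares over all genes in those fits are not given. The count was 6 without Bgn-/- with biglycan and CpG, 7 without Lum-/- with lumican and CpG or WT with lumican alone, and 9 without Bgn-/- with biglycan alone or WT with biglycan and CpG. It was 11 without WT with CpG, 12 without Bgn-/- with CpG or WT with lumican and CpG, 33 without Bgn-/- untreated and 46 without WT with biglycan alone.

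Of the 6 largest called rises with CpG, 5 lost their calls without the 3 libraries that stand apart. Those 3 had the lowest unstimulated sums, so leaving them out raises the summed unstimulated level that CpG is set against. The unstimulated libraries that remain are Bgn-/- untreated, Lum-/- with lumican, WT with lumican and WT with biglycan. The loss of a call therefore cannot tell which unstimulated level is the right one. Rpl27 of the large subunit had 319 to 380 TPM (median 364) with CpG, against 173 to 343 TPM (median 319) without a stimulus, a difference of 0.40 (adjusted p = 0.0322). The lowest unstimulated values were 173 TPM in Lum-/- untreated and 178 TPM in Bgn-/- with biglycan alone, and without the 3 libraries the difference was 0.15 (adjusted p = 0.126). Copies held 79.3% and 78.5% of Rpl27 and its copies in those 2 libraries. With copies added they had 834.4 and 827.9 TPM, against 685.5 to 928.5 TPM in the other unstimulated libraries. Rpl5, which carries 5S rRNA into the ribosome together with Rpl11, had 26.98 to 42.15 TPM (median 35.0) with CpG, against 17.9 to 35.1 TPM (median 27.9). Its difference of 0.39 (adjusted p = 0.0243) was 0.18 without the 3 libraries (adjusted p = 0.172) and 0.04 with its copies added. Rpl35, Rpl10a and Rps13 likewise lost their calls without the 3 libraries, at 0.14, 0.14 and 0.08, from 0.32, 0.27 and 0.27 with all libraries. With copies added, Rpl27, Rpl5, Rpl35 and Rps13 were not called, and Rpl10a was.

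A smaller set was also called in some other settings, though the share of all genes that did so is not given. Of the 20 calls, 7 were also made with copies added, without the 3 libraries, with median-of-ratios scaling and with quantile normalization: Rpl15, Rpl18, Rpl22l1, Rpl24, Rpl36al, Rpl7l1 and Rps2, picked by that count after their values were seen. Fits that left out a library were not part of that count. As few as 6 members were called in such a fit, so these 7 were not all called in every one of those fits. Rpl15, a large-subunit core protein, had 230 to 283 TPM (median 257) with CpG, against 132 to 252 TPM (median 211) without a stimulus. It was higher in 7 of 7 pairs, by 0.38 (adjusted p = 0.0164) with all libraries and by 0.15 without the 3. Rpl24 had 912 to 1052 TPM (median 973) with CpG and stood above all unstimulated values, by 0.25 ± 0.05 (SE, adjusted p = 0.00145). Rpl18, the only other member with no overlap, was at 639 to 721 TPM with CpG, against 563 to 633 TPM, a difference of 0.19 (adjusted p = 0.00385). All CpG values lay above all unstimulated ones for these 2 members, against 581 of the 11774 genes tested. That is a smaller share of the members than of all genes, so the lack of overlap does not set the members apart. Rpl24 and Rpl22l1 were therefore called higher with either stimulus, in comparisons that share their unstimulated libraries.

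With all libraries, genotype gave few calls among the members, and for Lum-/- there were more without libraries that stand apart. In the libraries labelled Lum-/-, 1 member was lower than in WT and 0 higher, against 3.69% of all genes called lower, and the members' median was -0.12, against -0.04 over all genes. That member, Rpl4, a large-subunit protein that lines the exit tunnel, had 832 TPM in Lum-/- untreated, 826 with lumican alone, 485 with LPS, 538 with lumican and LPS, 823 with CpG and 805 with lumican and CpG. The matched WT values were 899, 859, 534, 622, 913 and 934 TPM. All 6 pairs were lower in Lum-/-, by -0.16 ± 0.04 (SE, limma adjusted p = 0.0405), but the call was lost under median-of-ratios scaling (-0.12, adjusted p = 0.128) and in 15 of 21 fits that left out 1 library, such as the one without Lum-/- with LPS (-0.15, adjusted p = 0.12). Mast cell markers (8 genes, 6 with means above 1 TPM) differed by genotype too in stimulated cells. With CpG they summed to 13.9 and 14.3 TPM in Lum-/- and 5.67 and 6.22 TPM in Bgn-/-, against 89 to 122 TPM in WT. With LPS they were at 166 and 173 TPM in Lum-/- and 140 and 156 TPM in Bgn-/-, against 192 to 203 TPM in WT. Untreated cells went the other way, at 4.83 TPM in WT, 18.7 TPM in Lum-/- and 9.45 TPM in Bgn-/-. With protein alone, WT had 90.7 TPM (lumican) and 88.1 TPM (biglycan), Lum-/- 10.3 TPM (lumican) and Bgn-/- 17.7 TPM (biglycan). The part of these markers in the genotype results was not tested.

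The count for Lum-/- rose when libraries that stand apart were left out. Without the 2 alike libraries 12 of 82 members were lower, against 7.37% of all genes. Without the 3 libraries 17 of 82 were lower, against 8.48%, and in stimulated libraries alone 19 of 82, against 7.58%. Each was a larger share of the members than of all genes, and that difference was not tested. Under median-of-ratios scaling with all libraries none was called, with 6 members at an unadjusted p under 0.05. In the libraries labelled Bgn-/- no member differed from WT (limma, 0 called, 15 at an unadjusted p under 0.05), against 0.212% of all genes, and the median was 0.09. Without the 3 libraries 3 members were higher, against 0.544% of all genes.

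Added proteoglycan and the interaction of genotype with stimulus gave no calls in limma. Lumican with a stimulus against the stimulus alone left 0 members called (1 at an unadjusted p under 0.05, median 0.03), against 0% of all genes, and biglycan left 0 (0 unadjusted, median 0.00), against 0%. The LPS response of Lum-/- differed from that of WT in 0 members, against 0% of all genes (7 unadjusted), and the CpG response in 0, against 0% (4 unadjusted). For Bgn-/- both responses also gave 0 members, against 0% (1 unadjusted each). Without the 2 alike libraries all 4 of these comparisons again gave 0 members. All genes were then called in 0% for both Lum-/- responses, in 1.8% for the LPS response of Bgn-/- and in 2.01% for its CpG response. At an unadjusted p under 0.05 there were 6 members for the LPS and 1 for the CpG response of Lum-/-, and 23 and 10 for those of Bgn-/-. Without the 3 libraries both responses of Lum-/- gave 0 members, against 0.00849% of all genes (6 unadjusted with LPS and 1 with CpG), and those of Bgn-/- could not be fitted. The interaction fits with all libraries had 6 residual degrees of freedom, and a p that misses the threshold does not show that responses were alike. The summed share with protein was 0.899 to 1.09 times that without it in stimulated libraries. Without a stimulus it was 1.24 times in Lum-/- with lumican, 0.831 times in Bgn-/- with biglycan, 1.18 times in WT with lumican and 1.16 times in WT with biglycan, and each of these pairs holds 1 of the 3 libraries that stand apart.

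Near-identical copies carried a sizeable part of the TPM of members and copies. Ribosomal protein mRNAs have left many processed pseudogenes in the mouse genome, and where such a copy stands in the index of transcripts, reads that match both are divided by estimation. An alignment (at least 90% identity over at least 70% of the copy) found 760 such genes, of which 85, from 46 members, had a mean of at least 1 TPM. Copies held 17.2% to 24.5% of the summed TPM of members and copies. For 15 members the copies' summed mean exceeded the member's own. The members named here were chosen after their values were seen. Rps12 had a mean of 49.3 TPM against 1432 TPM in its copies, of which Rps12-ps3 had 1397 TPM. Rpl5 had 26.8 TPM against 892 TPM, Rpl12 25.9 TPM against 694 TPM, and Rpl10 458 TPM against 1569 TPM. The level of such a member is the part that was assigned to it, and whether the copies' TPM comes from reads of the members or from transcribed copies was not tested. Adding copies changed the LPS counts of members little (76 lower and 2 higher in TPM) and gave 17 higher with CpG. The shares over all genes with copies added are not given.

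The 2 alike libraries also differed from the others in this division. The median copy share of the 46 members was 42.8% in Lum-/- untreated and 33.8% in Bgn-/- with biglycan alone, against 6.14% to 16.7% in the other 19. In 31 of the 46, the highest share of all 21 libraries was in 1 of these 2. Rps13 had 40.8% and 28.9% of its TPM on copies there, against 0.115% to 9.46% elsewhere, and Rpl38 had 40.9% and 19.4%, against 0% to 0.801%. With copies added, the sums of the 2 libraries came to 6.95% and 7.08%, against 6.64% in WT untreated and 7.49% to 7.92% in the other 4 unstimulated libraries. The shallow depth of the 2 libraries moves with this division, and its part was not tested.

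**Figure D4:**
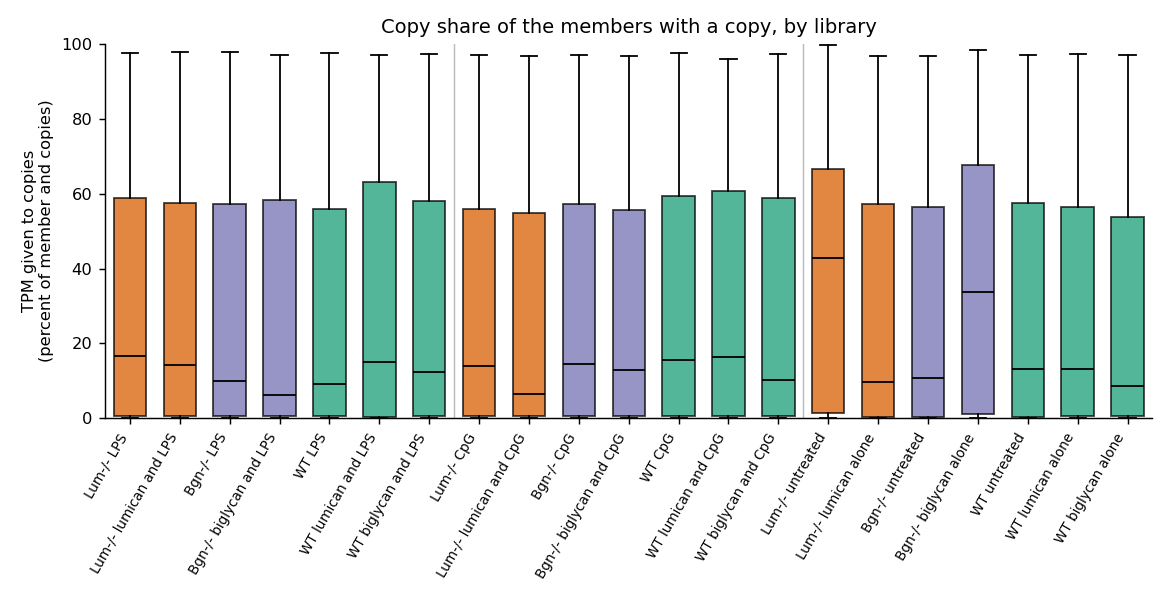
Share of TPM assigned to copies (vertical axis, percent of member and copies) for the 46 members with a copy of at least 1 TPM, 1 box per library with its median and quartiles, coloured by genotype (orange Lum-/-, violet Bgn-/-, green WT). Libraries run from LPS through CpG to no stimulus. The medians of Lum-/- untreated (42.8%) and Bgn-/- with biglycan alone (33.8%) lie above the 6.14% to 16.7% of the others.

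Rps27 was the extreme case. This zinc-binding small-subunit protein is encoded on chr3:90212522-90213651 (minus strand), and a retrocopy, Rps27rt, lies on chr9:114982366-114982739 (minus strand). The coding sequences of both are the same 255 bases, with 0 differences, which is why no read within them can tell the genes apart:
Rps27 and Rps27rt: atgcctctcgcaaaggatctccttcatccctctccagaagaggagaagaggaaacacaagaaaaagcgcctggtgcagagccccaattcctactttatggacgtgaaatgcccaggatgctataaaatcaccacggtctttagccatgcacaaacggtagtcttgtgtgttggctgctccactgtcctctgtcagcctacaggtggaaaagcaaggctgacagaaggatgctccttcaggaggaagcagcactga

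The pair, singled out after its values were seen, held a steady sum that lay on either gene. With LPS, Rps27 had 98.9 TPM in Lum-/-, 177 in Lum-/- with lumican, 1263 in Bgn-/-, 1371 in Bgn-/- with biglycan, 1210 in WT, 150 in WT with lumican and 1315 in WT with biglycan. With CpG it had 82.96 TPM in Lum-/-, 1738 in Lum-/- with lumican, 218 in Bgn-/-, 1845 in Bgn-/- with biglycan, 138 in WT, 122 in WT with lumican and 48.4 in WT with biglycan. Without a stimulus it had 3.53 TPM in Lum-/- untreated, 2083 in Lum-/- with lumican, 1830 in Bgn-/- untreated, 41.1 in Bgn-/- with biglycan, 116 in WT untreated, 122 in WT with lumican and 1857 in WT with biglycan. No library lay between 218 and 1210 TPM, and both states occurred with every stimulus. Rps27rt took the rest, from 0.866% to 99.7% of the pair, so that Rps27 ranged 591-fold over the libraries and the sum of both only 1.72-fold, at 1225 to 2101 TPM. With the copy added, the LPS difference of Rps27 in TPM was -0.34 (adjusted p = 0.00457), whereas Rps27 alone gave 1.02 ± 1.35 (SE, adjusted p = 0.485).

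**Figure D5:**
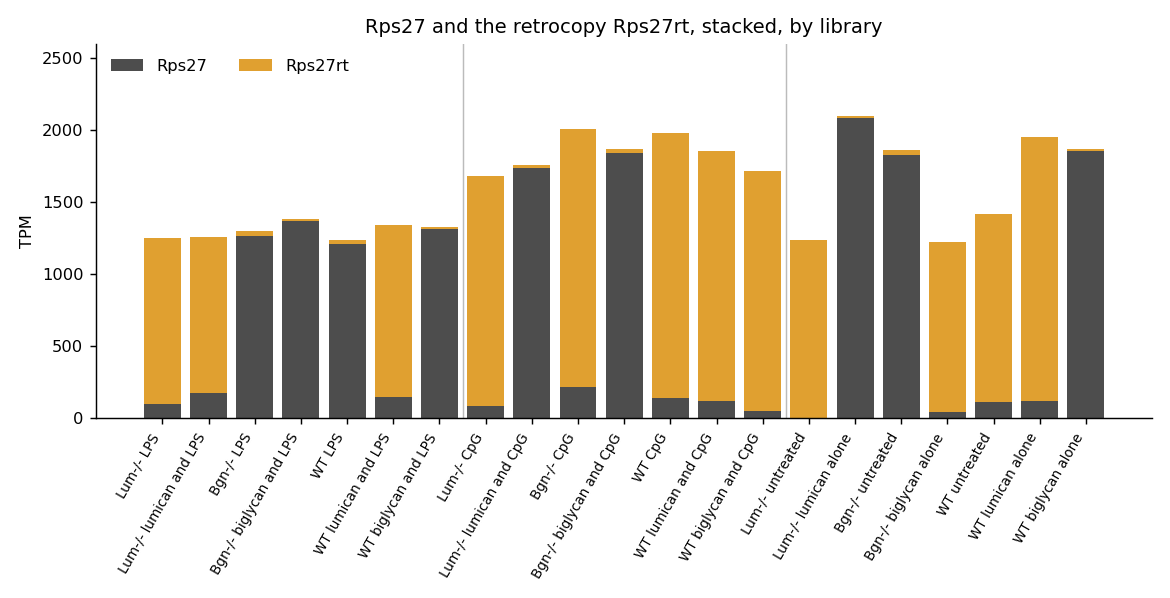
TPM (vertical axis) of Rps27 and the retrocopy Rps27rt, stacked, in each of the 21 libraries, running from LPS through CpG to no stimulus. In each library 1 of the 2 genes holds nearly all of the pair, while the stacked height stays between 1225 and 2101 TPM.

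Other genes of the translation machinery were called lower in TPM with LPS in shares above and below the 71.6% of all genes. Of 16 other mRNAs known to carry the TOP motif, 16 were lower in TPM (median -0.70, against -0.71 over all genes), and 8 were higher and 3 lower after median-of-ratios scaling. Eef1a1, the elongation factor that brings tRNA to the ribosome, averaged 3348 TPM with LPS, against 5347 TPM without a stimulus, a fall in TPM that scaling turned to 0.17 (adjusted p = 0.0337). Of 30 initiation factors, 18 (60%) were lower and 6 (20%) higher in TPM (median -0.32), and 4 were lower and 21 higher after scaling. Eif2s2, a subunit of the factor that brings the first tRNA, averaged 144 TPM with LPS, against 69.4 TPM, a rise of 1.05 (adjusted p = 1.66e-09) that scaling made 1.87. Of 20 ribosome assembly and transport factors, 14 (70%) were lower and 3 (15%) higher in TPM (median -0.60), and scaling turned the direction, with 5 lower and 9 higher (median 0.17). Ltv1, a factor of small-subunit export, was higher by 0.44 (adjusted p = 0.000347).

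Of 78 mitochondrial ribosomal proteins, the counterparts of the members in the organelle, 73 (93.6%) were lower and 2 higher in TPM with LPS, with a median of -0.99. After scaling 40 (51.3%) were lower and 18 (23.1%) higher (median -0.18), against 38.3% of all genes called lower and 38.9% higher, whereas 66 cytosolic members were higher. Mrpl42 averaged 11.3 TPM with LPS, against 66.0 TPM without a stimulus, a difference of -2.44 (adjusted p = 5.41e-11) that was -1.65 after scaling. The difference between the 2 groups of genes was not tested. Of the 13 genes of the mTOR and LARP1 list, 10 (76.9%) were lower and 3 higher in TPM (median -0.83), and 6 were lower and 4 higher after scaling (median -0.09). Tsc2, a brake on mTOR, averaged 15.3 TPM with LPS, against 44.1 TPM, and was lower by -0.64 after scaling (adjusted p = 2.6e-05). The lower counts without the 3 libraries that stand apart were 16 TOP mRNAs, 18 initiation factors, 14 assembly factors, 73 mitochondrial proteins and 10 genes of the mTOR and LARP1 list, against 72% of all genes. The 5 genes named from these lists were called in the same direction without those libraries.

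With CpG, 15 of the 20 assembly and transport factors (75%) were called higher and 1 lower, against 14.6% of all genes called higher. Their median was 0.32, beside 20 of the 82 members and a median of 0.15, and that difference was not tested. Grwd1, a chaperone of Rpl3 in yeast, averaged 16.9 TPM with CpG, against 9.48 TPM without a stimulus, a rise of 0.78 (adjusted p = 5.53e-05), and Mrto4, which precedes the stalk proteins on the assembling large subunit, averaged 45.3 TPM, against 27.7 TPM. Of 30 initiation factors 19 (63.3%) were higher and 1 lower (median 0.23), of 16 TOP mRNAs 7 were higher and 2 lower, of 78 mitochondrial ribosomal proteins 11 were higher and 3 lower, and of 13 mTOR and LARP1 genes 2 were higher and 3 lower. Leaving out the 3 libraries, 16 assembly factors, 21 initiation factors, 7 TOP mRNAs, 14 mitochondrial proteins and 3 genes of the mTOR and LARP1 list were higher, against 16.8% of all genes. Larp1, the repressor that binds the TOP motif, averaged 61.3 TPM with CpG, against 44.1 TPM, a rise of 0.48 (adjusted p = 3.03e-05) that was 0.51 without the 3 libraries.

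The genes outside the list whose profile was most like the members' mean over the 21 libraries were Tbca, a tubulin cofactor (Pearson correlation of log2 values 0.98), Slc12a2, 1600002K03Rik, Manbal and Cox6c, a subunit of cytochrome oxidase (0.96). These correlations run over libraries that share stimuli and the same totals, and they are a description.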

How the data were processed

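Total RNA of 21 wells of CD11b+ mouse peritoneal cells was sequenced from stranded libraries on a HiSeq, per the labels' protocols. The authors deposited TPM per transcript, made with bcl2fastq 1.8.4 and kallisto 0.44.0 on GRCm38, per the submitters' processing notes, and TPM keeps no read depth. Of 89562 transcripts, 82788 carried a gene name, 5424 of the other 6774 were named through GENCODE vM21, and 1350 (5350.5 to 7548.3 TPM per library) were left out. TPM was summed per gene, and the 11774 genes whose mean reached 1 TPM entered the tests. limma 3.58.1 (R 4.3.3) was fitted to log2(TPM + 1), which understates changes of low genes, with genotype and 9 treatments and a trended variance. Adjusted p-values (Benjamini-Hochberg) run over all genes tested. Copies were found with BLAST 2.17.0. The value of 1 read was estimated from the spacing of low values of 3704 genes with 1 transcript, so read numbers are approximate. Named members were the 5 most abundant, the paralog pairs, the 6 largest called changes each way per stimulus comparison and up to 3 per other comparison. Members and lists were chosen with earlier results of these data known. The fits were tested on simulated data. A summary column of the table, 1 in all, was not used. Some items are not reported here.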

Additional observations from a re-analysis of the deposited data

How the results depend on the processing

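Pseudocounts of 0.1 and 5 and a robust variance kept every call count within 1.5 times. Median-of-ratios scaling turned the LPS counts, giving 66 members called against no stimulus and 32 called against CpG. It also changed the sign of Rpl13a (to 0.066) and Rpl22 (to 0.029) with LPS. The median gene was itself lower in TPM with LPS. Coding transcripts alone, an alternative chosen after seeing the data, changed the sign of Rpsa (to 0.30). For CpG against no stimulus, 10 members were called with no filter, 38 with scaling, 32 with members and Saa3 left out of the total, 31 with a block for each combination of genotype and protein and 6 to 46 with 1 library left out. For Lum-/- against WT, counts were 2 with a mean of at least 5 TPM, 4 on the most abundant transcript, 12 without 2 libraries, 17 without 3, 19 in stimulated libraries, 3 with copies added and 4 on coding transcripts (both chosen after seeing the data), 0 with no filter, scaling, quantile normalization or members and Saa3 left out, and 0 to 5 with 1 library left out, where Lum-/- untreated gave 5. For Bgn-/- against WT, counts were 2 without 2 libraries, 3 without 3, 2 in stimulated libraries and 0 to 1 with 1 left out. With 1 left out, the LPS response gave 0 to 2 for Lum-/- and 0 to 1 for Bgn-/-, and the CpG response 0 to 1 and 0 to 3. LPS against no stimulus then gave 69 to 77 and LPS against CpG 78. The cause of these shifts was not tested, and where no share of all genes is given above, the counts describe members alone. Over the named members and the other alternatives, the call was lost in the same direction 46 times and kept 256 times. A coding filter by the table's own transcript type was not run, since the table types genes only, and the responses of Bgn-/- could not be fitted without the 3 libraries. TPM, 1 library per combination and shared sequence limit what low members and copies can show. The labels carry no replicate numbers that could pair libraries, and the blocks of genotype and protein gave the same counts as all libraries without them for LPS against no stimulus (72) and LPS against CpG (78).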
